A study of Mus musculus with 60 samples.

Results

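A set of 10 genes that mark early reprogramming and the mesenchymal-to-epithelial transition (MET) was followed in RNA sequencing counts of mouse fibroblasts: Fut4, Alpl, Epcam, Cdh1, Nanog, Esrrb, Sall4, Lin28a, Tdgf1 and Utf1. They were chosen by symbol from 56980 gene identifiers, and all 10 were found in both count tables. The first table held 36 libraries of a 4-day doxycycline time course, and the second held 24 libraries of fibroblasts given inhibitors of TGFb or BMP signaling. Each of the 20 groups had 3 libraries. In the time course, D/KO cells were male tail tip fibroblasts of genotype 4FJ_ERCC1_(d/-) aged 8 weeks, and WT cells were female tail tip fibroblasts of genotype 4FJ_(+/-)_OCT4-GFP aged 22 weeks. Both lines, day 0 included, carried a doxycycline-inducible transgene for the factors Oct4, Klf4, Sox2 and Myc under a tet operator at Col1a1, with the rtTA activator at ROSA26. They were sampled at day 0, 2 or 4 of doxycycline (2 µg/ml), each with or without VC, which is ascorbic acid (50 µg/ml) and CHIR-99021 (3 µM). Day 0 libraries had no doxycycline, and every day 2 and day 4 library had it. Doxycycline, the induced factors and time in culture therefore cannot be told apart. In the inhibitor table, D/KO cells were female tail tip fibroblasts of genotype ERCC1_(d/-) aged 4 weeks, given no inhibitor, Repsox, Vactosertib, DMH-1 or A83-01. Its other groups were female ERCC1_(+/+)_WT fibroblasts aged 14 weeks, from tail tip or from skin, and 4FJ_(+/-)_OCT4-GFP tail tip fibroblasts aged 22 weeks labelled TGFB, called WT 4F here. All cells were kept at 3% oxygen. In comparisons of D/KO with WT, genotype and age went together in both tables. Sex, the Oct4-GFP allele and the cited origin of the transgene went with them in the time course, so the parts of these items cannot be told apart. The methods cite different mice as the origin of the transgene in the 2 lines. A hybrid strain background is given there for the D/KO line and none for the Oct4-GFP line.

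Reprogramming of a fibroblast runs through loss of its mesenchymal program, a gain of epithelial junctions, and only later activation of the endogenous pluripotency network. Cdh1 encodes E-cadherin, the calcium-dependent adhesion molecule of epithelial adherens junctions and a target of the Snail and Zeb repressors, and Epcam encodes an epithelial adhesion molecule that pluripotent cells also carry. Alpl encodes tissue-nonspecific alkaline phosphatase, whose activity is a stain for early reprogrammed colonies and also for cells of the osteoblast lineage, and Fut4 encodes a fucosyltransferase that can make the SSEA1 carbohydrate. Nanog, Esrrb, Sall4 and Utf1 encode nuclear factors of pluripotent cells, Lin28a an RNA-binding protein that blocks maturation of let-7, and Tdgf1 (Cripto) a co-receptor for Nodal.

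Alpl rose with VC in both lines before any doxycycline was given, so the bases before both of its RefSeq start sites are shown, on the minus strand of GRCm39, as far as they lie outside GENCODE M39 exons. The first lies at chr4:137523711-137523945, beyond the 5′ end that the count tables give for the gene, and the second at chr4:137493787-137494036, within it. Both lie inside the span of the gene in GENCODE M39. Capitals mark the E2-box CAGGTG, the site of Snail and Zeb proteins.
Alpl, first start: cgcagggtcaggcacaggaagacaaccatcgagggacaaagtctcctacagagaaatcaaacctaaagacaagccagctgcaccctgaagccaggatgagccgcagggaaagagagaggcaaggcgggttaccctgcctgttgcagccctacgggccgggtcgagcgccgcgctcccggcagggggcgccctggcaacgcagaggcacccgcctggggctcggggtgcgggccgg
Alpl, second start: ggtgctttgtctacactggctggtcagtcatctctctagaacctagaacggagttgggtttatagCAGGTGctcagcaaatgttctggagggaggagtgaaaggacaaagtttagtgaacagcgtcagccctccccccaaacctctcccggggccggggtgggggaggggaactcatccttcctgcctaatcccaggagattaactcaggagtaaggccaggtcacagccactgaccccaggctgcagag
The window before the first start held 20 CG dinucleotides in 250 bases and the one before the second held 4, against a median of 6 over all promoters. The E2-box was found on either strand in 17.3% of 32544 distinct promoter windows of the RefSeq table (build GRCm38.p6), the octamer ATTTGCAT in 1.62% and the Esrrb motif CAAGGTCA in 1.33%. Of these 3 motifs, the E2-box alone was present before the second Alpl start, 179 bases from it, and in the windows before the RefSeq starts of Fut4 and Nanog. None was present before the first Alpl start. All 250 bases of the Fut4 window lay in GENCODE M39 exons and inside the gene as counted. In each Nanog window 202 of 250 bases lay in exons. A match of letters is a description of the window and not a bound site. Cdh1 was not in the table.

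Each time course library held between 16538374 and 18484951 counts, and each inhibitor library between 17102639 and 30599138. Fibroblast markers (Col1a1, Pdgfra and 8 others) summed to at least 33122 CPM (counts scaled to a common library total) in every library of the time course, and the melanocyte genes Tyr and Mlana had 0 counts there. Ercc1, the gene altered in D/KO, was at 11.9 to 18.6 CPM in D/KO and 17.97 to 21.9 CPM in WT at day 0 without VC, which overlapped, and lay wholly lower in D/KO in the other 5 pairs of the time course (8.03 to 11.7 against 16.8 to 18.5 CPM at day 4 with VC). In the inhibitor table it was at 20.3 to 20.9 CPM in D/KO and 13.3 to 21.7 CPM in WT tail tip controls. A gene count does not tell a truncated transcript from a whole one, so these levels are no check of the labels. Pou5f1, whose transgene and endogenous transcripts share reads, averaged 0.835 CPM in D/KO and 1.96 CPM in WT at day 0, 68.8 and 34.3 CPM at day 2, and 64.0 and 60.5 CPM at day 4 (119 and 96.5 CPM with VC). At day 2 Sox2 averaged 101 CPM in D/KO and 47.6 in WT, Klf4 229 and 194, and Myc 254 and 135. The day 4 values, in the same order, were 94.0 and 83.7, 210 and 229, and 236 and 171 CPM. With VC at day 4 they were 147 and 131, 320 and 283, and 342 and 260 CPM. The Myc libraries of the lines did not overlap in these pairs. The part of factor levels in the line differences was not tested. The libraries of a group come from cultures of one labelled line, so p-values measure the spread between these samples, which may be technical.

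Most of the 10 genes were barely detected at this depth. Fut4 had counts in all 60 libraries (5683 in total), Alpl in 59 (3154), Nanog in 44 (196), Epcam in 32 (95), Cdh1 in 30 (3150) and Esrrb in 20 (43). Utf1 had 11 counts in 6 libraries, Sall4 11 in 5, Lin28a 3 in 2 and Tdgf1 1 in 1. The filter on low counts kept Fut4, Alpl and Cdh1 among 15832 tested genes in the time course, and Fut4, Alpl and Nanog among 15652 in the inhibitor table. Cdh1 passed through the D/KO groups with doxycycline, where it was high, and therefore had to differ between some groups. Antisense transcripts overlap Esrrb (Gm56558), Sall4 (Gm14261) and Lin28a (Gm13061), and the strand setting of the counting is not given in the sources used here, so their few counts may include antisense reads. Pseudogene copies of Nanog, Tdgf1 and Fut4 are annotated, and reads shared with them may have been lost or split.

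**Figure D1:**
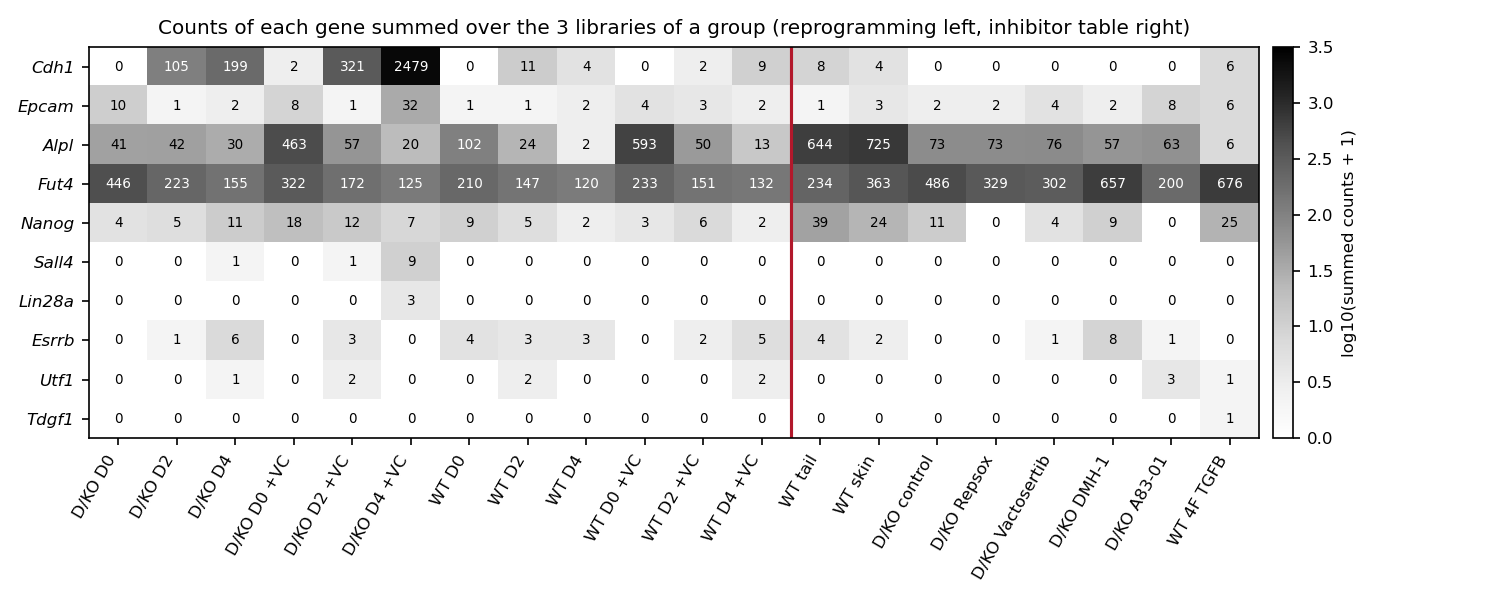
Counts of the 10 genes (rows) summed over the 3 libraries of each of the 20 groups (columns), with shading by log10(summed counts + 1) and the inhibitor table to the right of the red line. Cdh1 reached 2479 counts in D/KO cells at day 4 with VC and 9 in WT cells of the same day and treatment, and Sall4 and Lin28a had 9 and 3 of their counts in that same D/KO group.

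Cdh1 appeared in D/KO cells within 2 days of doxycycline and was highest at day 4 with VC. It had 0 counts in all 3 D/KO libraries at day 0, then 40, 41 and 24 at day 2, and 52, 80 and 67 at day 4. With VC the counts were 2, 0 and 0 at day 0, then 92, 106 and 123 at day 2, and 916, 753 and 810 at day 4. The day 2 and day 4 libraries lay above every day 0 library in both arms. In a bulk sample, more cells with the transcript and more transcript per cell cannot be told apart.

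Against the 3 counts that an all-zero group allows, Cdh1 was at least 32.95-fold higher at day 2 and at least 58.4-fold higher at day 4 without VC (edgeR adjusted p = 1.89e-09 and 1.04e-11), where 27.4% and 37.0% of all tested genes were called. With VC it was 132.6-fold higher at day 2 (95% counting interval 36.4 to 1099) and 953.6-fold higher at day 4 (263.7 to 7879), ratios that rest on 2 counts in 1 day 0 library (adjusted p = 1.28e-12 and 9.13e-18, background 47.4% and 54.1%). The interval covers counting error only. From day 2 to day 4 Cdh1 rose 7.20-fold with VC, from 6.16 ± 0.78 to 44.3 ± 3.5 CPM (SD, n = 3, log2 fold change 2.85 ± 0.24 SE, adjusted p = 2.85e-10, background 15.6%). Without VC the step from 2.00 to 3.54 CPM missed the threshold (log2 fold change 0.83, adjusted p = 0.0506, background 9.57%), although the 2 sets of libraries did not overlap, and it passed with DESeq2 (adjusted p = 0.0138).

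VC raised Cdh1 in D/KO cells at both days of doxycycline. At day 2 Cdh1 was 3.09-fold higher with VC than without (log2 fold change 1.63 ± 0.26, adjusted p = 2.22e-05, background 25.3%), and at day 4 it was 12.5-fold higher (3.64 ± 0.25, adjusted p = 1.73e-12, background 34.5%). At day 0 the 2 counts with VC against 0 without did not pass (adjusted p = 0.211, background 26.1%). Per kilobase of exon, Cdh1 at day 4 with VC stood at 9.69 CPM, above Fut4 at 0.548 and Alpl at 0.0896 in the same libraries.

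In WT cells Cdh1 stayed at a few counts per library. It had 0 counts in all 6 WT libraries of day 0, then 4, 2 and 5 at day 2 and 3, 0 and 1 at day 4 without VC. With VC there were 1, 0 and 1 counts at day 2 and 4, 2 and 3 at day 4. Day 2 without VC (at least 3.71-fold, adjusted p = 0.00945) and day 4 with VC (at least 2.64-fold, adjusted p = 0.00732) passed the test against day 0. Day 4 without VC and day 2 with VC did not (adjusted p = 0.0845 and 0.247). Both WT calls rest on 11 and 9 counts of a gene that the D/KO groups carried past the filter, and in a fit of only the libraries compared Cdh1 was not tested in WT, while with no filter and by DESeq2 both calls held. The background in these 4 comparisons was 10.6% and 24.5% at day 2 and 4 without VC, and 27.5% and 44.7% with VC.

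The Cdh1 levels of the 2 lines were far apart once doxycycline was present. D/KO exceeded WT 10.1-fold at day 2 and 50.9-fold at day 4 without VC (log2 difference 3.30 ± 0.42 and 5.51 ± 0.46, adjusted p = 1.67e-07 and 4.35e-11), and 264.2-fold at day 4 with VC (8.00 ± 0.36, adjusted p = 2.61e-17). At day 2 with VC the ratio was 151.4, with a counting interval from 43.1 to 1303, because WT had 2 counts in all (adjusted p = 8.40e-13). No library of one line overlapped the other in these 4 comparisons, which were chosen after the data were seen and in which 42.4%, 51.0%, 54.0% and 39.2% of all tested genes were called, in the order given. The difference between the lines in the change from day 0, the planned comparison, could not be measured for Cdh1, because both day 0 groups without VC were at 0 counts and those with VC held 2 counts in all.

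Keratinocyte markers rose with Cdh1 in D/KO cells of the time course. The summed level of 9 such genes ran from 4.89 to 5.54 CPM in D/KO at day 0, from 46.1 to 62.3 CPM at day 4, and from 302 to 439 CPM at day 4 with VC. In WT it ran from 7.34 to 11.3 CPM at day 0, from 9.58 to 15.4 at day 2 and from 7.93 to 8.58 at day 4. With VC the WT ranges were 8.23 to 10.7, 21.7 to 22.4 and 19.5 to 21.0 CPM. WT did not follow this pattern at day 2, where Cdh1 averaged 0.198 CPM without VC and 0.0407 CPM with it. Krt14, a basal keratin, held most of it, at 0 counts in all D/KO libraries of day 0 with VC and 5416, 7066 and 8002 at day 4 with VC. The defining basal marker Krt5 reached only 5, 12 and 11 counts there, and Trp63 changed by 0.46 on the log2 scale (adjusted p = 0.362). Of the 9 genes 6 were tested, 4 of them rose and 1 fell in that comparison. The summed fibroblast markers moved the other way, from at least 183553 CPM in D/KO at day 0 with VC to at most 34322 CPM at day 4 with VC. The part of either list in the Cdh1 result was not tested.

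Epcam, the other adhesion gene of the list, did not pass the filter. It had 16, 12 and 4 counts in D/KO at day 4 with VC, and no other library of the time course held more than 7. The 3 D/KO libraries at day 0 held 2, 7 and 1 counts, so the libraries overlapped. In the inhibitor table it had 28 counts over 24 libraries, at most 6 in one.

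**Figure D2:**
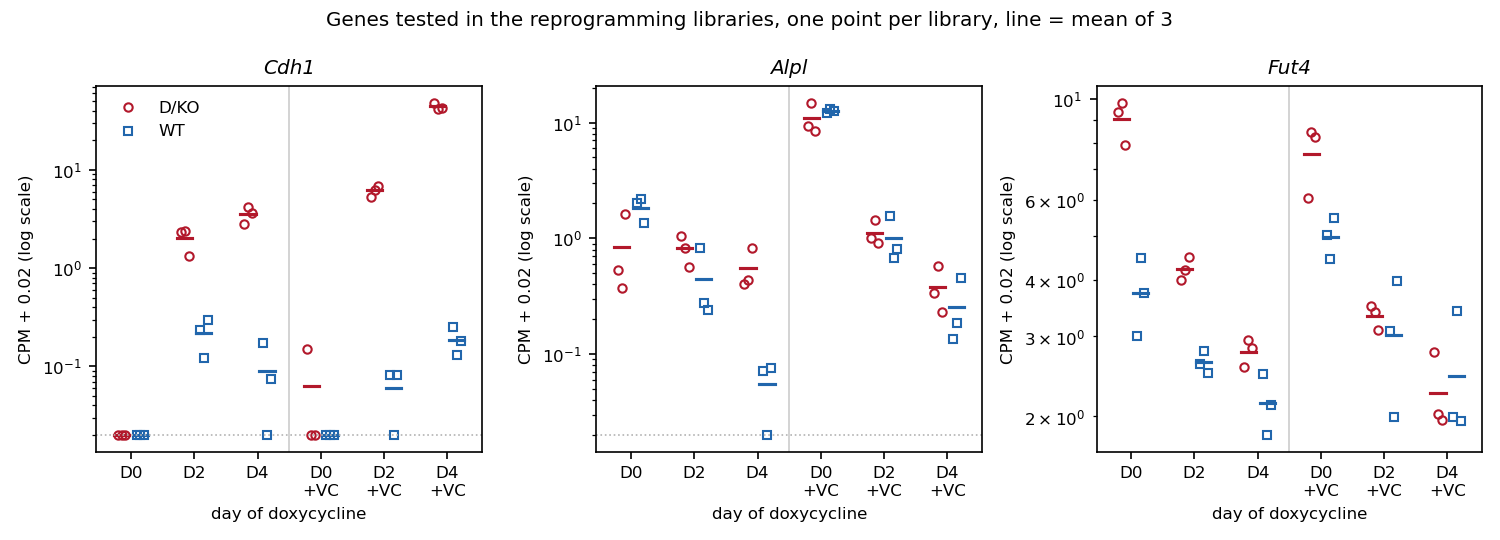
CPM + 0.02 (log scale) of Cdh1, Alpl and Fut4 by day of doxycycline without VC (left of the grey line) and with VC (right), with one point per library, D/KO as red circles, WT as blue squares and a line at the mean of 3, the dotted line standing for 0 counts. Cdh1 separated the lines by 264.2-fold at day 4 with VC, Alpl was highest in both lines at day 0 with VC (10.9 and 12.6 CPM), and Fut4 was lower at day 4 than at day 0 in every arm.

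Alpl responded to VC in the absence of doxycycline and was low after doxycycline. At day 0 the D/KO libraries held 8, 6 and 27 counts without VC and 145, 197 and 121 with VC. The WT libraries held 36, 40 and 26 without VC and 191, 213 and 189 with it. In neither line did the libraries with and without VC overlap. VC alone raised Alpl 13.3-fold in D/KO, from 0.819 ± 0.67 to 10.9 ± 3.4 CPM (log2 fold change 3.71 ± 0.42, adjusted p = 8.03e-09), and 6.90-fold in WT, from 1.82 ± 0.43 to 12.6 ± 0.51 CPM (2.78 ± 0.37, adjusted p = 3.37e-07, background 29.4%). After doxycycline, the difference between VC and no VC did not pass at day 2 or day 4 in D/KO (adjusted p = 0.517 and 0.478) or in WT by edgeR (adjusted p = 0.0825 and 0.0723, background 26.6% and 22.4%). DESeq2 called WT day 2 (adjusted p = 0.0495), and edgeR with no filter called WT day 4 (0.0478).

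Against day 0 with VC, Alpl was lower in both lines on the days with doxycycline. In D/KO it had 17, 24 and 16 counts at day 2 and 6, 10 and 4 at day 4 (log2 fold change -3.30 ± 0.40 and -4.90 ± 0.46, adjusted p = 1.22e-08 and 2.20e-11). In WT it had 25, 12 and 13, then 2, 3 and 8 (-3.66 ± 0.40 and -5.67 ± 0.49, adjusted p = 4.82e-09 and 5.62e-12). The later step from day 2 to day 4 with VC was also called in both lines (log2 fold change -1.59 in D/KO, adjusted p = 0.0315, and -2.01 in WT, adjusted p = 0.0112, background 20.1%), but in WT it was not called without the first day 2 library or the first or second day 4 library (adjusted p from 0.0560 to 0.112), and in D/KO it was not called without the first or second day 2 library or the first or the third day 4 library (0.0508 to 0.140). Summed fibroblast markers were lower at day 4 with VC as well (33122 to 34322 against 183553 to 253126 CPM at day 0 in D/KO, and 60905 to 71993 against 155586 to 171364 CPM in WT), and endothelial markers in WT were higher (98.3 to 116 against 5.97 to 7.77 CPM). Their part in the Alpl falls was not tested. These falls depend on the baseline: against day 0 without VC, the day 2 value in D/KO was 0.41 higher (adjusted p = 0.496), day 4 in D/KO was at -1.18 (adjusted p = 0.0671) and day 2 in WT at -0.88 (adjusted p = 0.107), and only day 4 in WT remained called (-2.885, adjusted p = 3.2e-05).

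Without VC, Alpl differed between the lines. WT libraries went from 36, 40 and 26 counts at day 0 to 15, 5 and 4 at day 2 and 1, 0 and 1 at day 4, called at both days (log2 fold change -2.07 ± 0.48 and -5.42 ± 0.73, adjusted p = 0.00268 and 3.84e-07). The ratio at day 4 was 51.2, with a counting interval from 13.8 to 428.6. From day 2 to day 4 it was called as well (-3.35, adjusted p = 0.00884, background 21.5%), but not without the first day 2 library (-2.535, adjusted p = 0.0764). D/KO libraries held 18, 14 and 10 counts at day 2 and 7, 8 and 15 at day 4, overlapping with day 0, and did not pass (-0.05 and -0.62, adjusted p = 0.958 and 0.373). The difference of change between the lines was called at day 4 without VC (log2 difference 4.81 ± 0.98, adjusted p = 5.59e-04, background 14.3%) and not at day 2 (2.02, adjusted p = 0.0721, background 6.54%, and called by DESeq2 with an adjusted p = 0.0278), day 2 with VC (0.36, adjusted p = 0.748, background 13.9%) or day 4 with VC (0.77, adjusted p = 0.463, background 29.4%). At day 0 without VC Alpl was lower in D/KO (-1.13 ± 0.44, adjusted p = 0.0355, background 43.2%), a call lost without the first or second library of either line (adjusted p from 0.0872 to 0.189). With VC the lines did not differ beyond their spread at day 0 (-0.21, adjusted p = 0.735, background 20.3%). Marker lists also moved differently in the lines without VC: from day 0 to day 4, summed endothelial markers went from 14.8 to 17.7 CPM to 95.5 to 95.9 CPM in WT and from 587 to 710 CPM to 329 to 347 CPM in D/KO, and fibroblast markers from 52073 to 53839 CPM to 45951 to 48227 CPM in WT and from 80090 to 119003 CPM to 37389 to 39018 CPM in D/KO. Their part in the Alpl difference was not tested.

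Markers of other cells were read beside the Alpl change with VC at day 0. Of 7 osteoblast markers 4 were tested, and Runx2, the lineage's defining transcription factor, had an adjusted p of 0.370 in D/KO and 0.621 in WT. Summed, the osteoblast markers ran from 31.1 to 42.0 CPM without VC and from 38.9 to 45.9 CPM with VC in D/KO. The summed fibroblast markers were higher with VC, at 183553 to 253126 against 80090 to 119003 CPM in D/KO and at 155586 to 171364 against 52073 to 53839 CPM in WT. Summed endothelial markers were lower with VC, at 232 to 273 against 587 to 710 CPM in D/KO and at 5.97 to 7.77 against 14.8 to 17.7 CPM in WT. The part of these lists in the Alpl result was not tested.

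Fut4 was the most evenly detected gene and was lower on the days with doxycycline than at day 0. In D/KO the libraries held 145, 167 and 134 counts at day 0, 69, 72 and 82 at day 2, and 47, 56 and 52 at day 4. With VC they held 93, 112 and 117, then 60, 57 and 55, then 52, 36 and 37. In neither arm did a library of day 2 or 4 reach the level of a day 0 library. The log2 fold changes from day 0 were -1.10 at day 2 and -1.70 at day 4 without VC, and -1.19 and -1.75 with VC (SE 0.22 to 0.23, adjusted p = 1.60e-04, 1.01e-07, 3.94e-05 and 5.96e-08). Without VC, summed endothelial markers ran from 587 to 710 CPM at day 0 and from 329 to 347 CPM at day 4, and summed fibroblast markers from 80090 to 119003 and from 37389 to 39018 CPM. With VC, where Fut4 fell too, the endothelial markers went the other way, from 232 to 273 CPM at day 0 to 384 to 515 CPM at day 4, while the fibroblast markers were lower at day 4 as well, going from 183553 to 253126 CPM to 33122 to 34322 CPM. Their part in the Fut4 result was not tested.

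In WT the Fut4 counts were lower at day 0 than in D/KO. They were 54, 83 and 73 at day 0, 48, 54 and 45 at day 2, and 48, 34 and 38 at day 4 without VC. With VC they were 79, 72 and 82, then 50, 36 and 65, then 34, 62 and 36. Fut4 fell at day 4 without VC, at day 2 with VC and at day 4 with VC (log2 fold change -0.81, -0.73 and -1.02, adjusted p = 0.0106, 0.0161 and 5.44e-04), and its day 2 value without VC was -0.51 (adjusted p = 0.174). The day 2 call with VC was lost against day 0 without VC (-0.32, adjusted p = 0.298), with no filter (0.0564), in a fit of only the libraries compared (0.0556), and without the third day 0 library or the second day 2 library (0.0671 and 0.152), and the day 4 call without VC was lost without the second library of either group (0.0839 and 0.0628).

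D/KO cells had 2.42 times the Fut4 of WT cells at day 0, at 9.01 ± 0.99 against 3.72 ± 0.74 CPM (log2 difference 1.27 ± 0.22, adjusted p = 1.42e-05). With VC the difference was 0.61 (adjusted p = 0.0460), a call lost without any one of 5 of the 6 libraries (adjusted p from 0.0627 to 0.156). At day 2 without VC D/KO was still higher (0.69 ± 0.23, adjusted p = 0.0164), and at day 4 without VC and in both later VC groups the difference did not pass (adjusted p from 0.191 to 0.686), although the lines did not overlap at day 4 without VC. The difference of change between the lines was -0.59, -0.89, -0.46 and -0.73 and passed in none of the 4 comparisons (adjusted p = 0.326, 0.0626, 0.392 and 0.0920), although DESeq2 called day 4 without VC (-0.90, adjusted p = 0.0430). Fut4 passed in none of the 6 comparisons of VC with no VC (adjusted p from 0.177 to 0.633). Other cell type markers moved with the line at day 0: summed endothelial markers ran from 587 to 710 CPM in D/KO and from 14.8 to 17.7 CPM in WT, and summed immune markers from 16.9 to 18.5 and from 80.1 to 152 CPM. Their part in the Fut4 and Alpl differences was not tested.

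The nuclear pluripotency factors stayed near the limit of detection through day 4. Nanog had at most 9 counts in any time course library, and its highest group mean was 0.427 CPM, in D/KO at day 0 with VC (4, 8 and 6 counts). In D/KO at day 4 with VC it had 2, 3 and 2 counts. Without VC it had 1, 2 and 1 counts in D/KO at day 0 and 1, 9 and 1 at day 4, so that 1 library held most of the day 4 counts.

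Sall4 and Lin28a showed the reverse pattern with very few counts. Sall4 had 2, 3 and 4 counts in the D/KO libraries at day 4 with VC, 1 count each in 1 library of D/KO day 4 and of D/KO day 2 with VC, and 0 in the other 31 time course libraries. Lin28a had 1, 2 and 0 counts in D/KO at day 4 with VC and 0 in all other 57 libraries. Neither was tested, because both failed the filter. Esrrb had at most 5 counts in a library and 0 in all 3 D/KO libraries at day 4 with VC. Utf1 had at most 2 counts in a time course library and Tdgf1 none, so that over the 36 libraries Tdgf1 could not exceed 0.00477 CPM on average, a limit for counting error only.

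The pluripotency genes beyond the 10 moved in both directions. Of 24 further pluripotency genes 11 were tested. Against day 0 with VC, 4 rose and 5 fell in D/KO at day 4, beside 27.9% of all tested genes higher and 26.2% lower, and 4 rose and 3 fell in WT, beside 22.7% and 22.0%. L1td1, an RNA-binding protein of pluripotent cells, went from 0 counts in all libraries to 4952, 4087 and 3381 in D/KO and to 232, 282 and 246 in WT. Gdf3, a TGFb family ligand, went from 0 to 65, 73 and 92 in D/KO and from 1, 0 and 2 to 8, 6 and 13 in WT, and Trim71, a let-7 target, rose by 5.10 and 3.09 on the log2 scale (adjusted p = 1.43e-08 and 0.00206). Klf2, Klf5 and Dnmt3l fell in both lines (log2 fold change -3.05, -2.93 and -2.62 in D/KO and -3.25, -1.82 and -1.18 in WT). Dppa4, Nodal, Nr0b1 and Otx2 had 0 counts in the time course. The median log2 fold change of the 11 genes was -0.19 in D/KO and 0.21 in WT.

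Of 26 further epithelial genes 11 were tested, and in D/KO at day 4 with VC 8 rose and 0 fell, with a median of 3.02 on the log2 scale. In WT 4 rose and 3 fell, with a median of 0.53. Of all tested genes, 27.9% were higher and 26.2% lower in D/KO, and 22.7% and 22.0% in WT. A gene with few counts at day 0 passes the filter only through groups where it is high. The tallies and medians of this list and of the pluripotency list are therefore in part fixed by the filter. Krt8, a simple-epithelium keratin, went from 0, 2 and 1 counts to 2729, 2741 and 2268 in D/KO and from 0 in all libraries to 18, 10 and 11 in WT. Cldn3, a tight junction claudin, went from 1, 0 and 0 counts to 35, 63 and 52 in D/KO, and Krt19 rose by 5.47 in D/KO and by 1.30 in WT (adjusted p = 7.20e-20 and 1.16e-04). Spint2, a protease inhibitor of epithelia, rose by 1.65 in D/KO and fell by 1.59 in WT (adjusted p = 7.67e-06 and 0.00166), and Ocln and Esrp2 fell in WT (-1.61 and -1.70). Grhl1 also rose in WT, from 0 counts in all libraries to 6, 7 and 3.

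Of the mesenchymal genes all 15 were tested, and 10 fell and 2 rose in D/KO at day 4 with VC, while 7 fell and 3 rose in WT, with medians of -0.50 and 0.07. The share of all tested genes that were lower was 26.2% in D/KO and 22.0% in WT. Acta2, the smooth muscle actin of myofibroblasts, fell in both lines (log2 fold change -4.30 in D/KO and -3.89 in WT). Twist2 and Snai1 fell in D/KO (-1.75 and -1.36), and in WT Cdh2, which encodes N-cadherin, and S100a4 fell (-1.35 and -1.34). Zeb1 and Zeb2, named after their values were seen, fell in D/KO (-0.30 and -0.50, adjusted p = 0.0303 and 0.00546) and were at 0.07 and 0.25 in WT (adjusted p = 0.643 and 0.179). The part of Zeb1 and Zeb2 in the Cdh1 result was not tested. Thy1, a fibroblast surface marker, rose by 0.79 and 0.82, Prrx1 by 0.42 and 0.58, and Snai2 rose by 0.56 in WT.

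Relatives of the 10 genes were counted in the same way. Of 19 listed relatives 17 were in the tables and 8 were tested, of which 2 rose and 2 fell in D/KO at day 4 with VC, and 1 rose and 1 fell in WT, shares no higher than the 54.1% and 44.7% of all tested genes called. Cdh3, which encodes P-cadherin, went the opposite way to Cdh1, from 354, 471 and 299 counts to 10, 7 and 2 in D/KO (a fall by 6.25 on the log2 scale, adjusted p = 2.41e-18) and from 523, 561 and 618 to 35, 36 and 34 in WT (by 4.21, adjusted p = 2.74e-16). Fut8 rose by 0.59 and Sall2 fell by 0.51 in D/KO, and Esrra rose by 0.50 in WT.

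The same lists were counted in the earlier groups, where fewer of all tested genes were called as well (27.4%, 37.0% and 47.4% in D/KO and 10.6%, 24.5% and 27.5% in WT, at day 2, day 4 and day 2 with VC). Of the 11 tested epithelial genes, 2 rose and 1 fell in D/KO at day 2, 4 rose and 2 fell at day 4, and 5 rose and 2 fell at day 2 with VC. In WT 1 rose and 0 fell at day 2, 2 rose and 1 fell at day 4, and 3 rose and 1 fell at day 2 with VC. Of the 11 tested pluripotency genes, 2 rose and 2 fell in D/KO at day 2, 3 rose and 4 fell at day 4, and 3 rose and 4 fell at day 2 with VC. In WT those counts were 2 and 1, 2 and 3, and 2 and 3. Of the 15 mesenchymal genes, 2 rose and 7 fell in D/KO at day 2, 1 rose and 8 fell at day 4, and 3 rose and 7 fell at day 2 with VC, and in WT the counts were 2 and 5, 2 and 8, and 5 and 5.

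**Figure D3:**
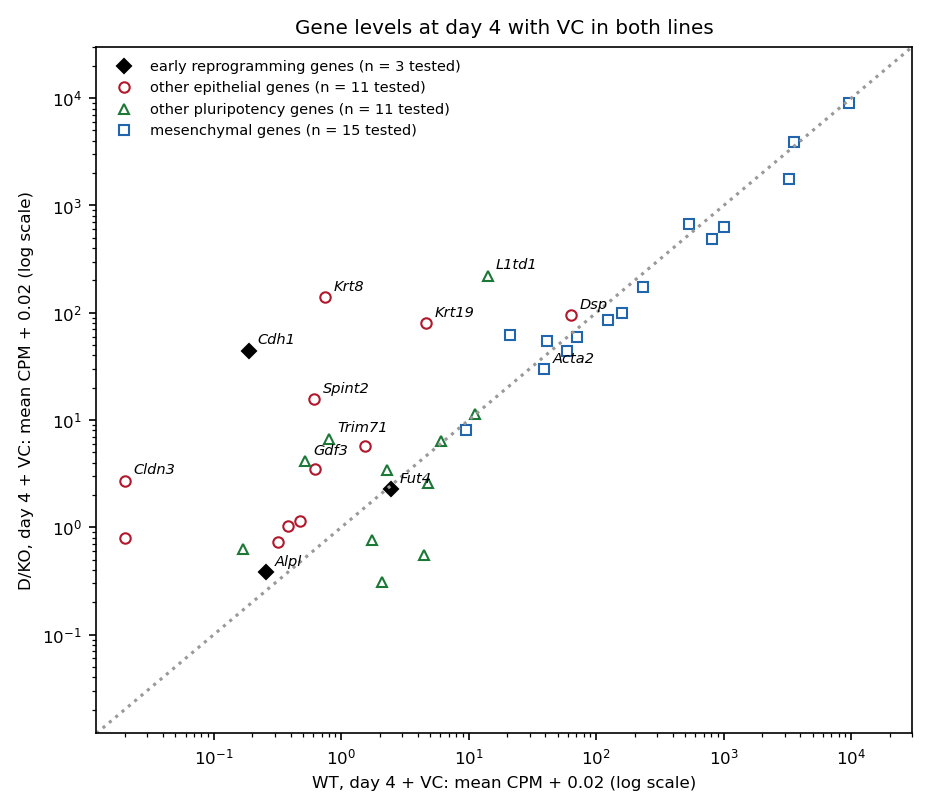
Mean CPM + 0.02 of each tested gene at day 4 with VC in WT (horizontal, log scale) and D/KO (vertical, log scale), 3 libraries each, for the early reprogramming genes (diamonds) and the epithelial (circles), pluripotency (triangles) and mesenchymal (squares) lists, with the dotted line at equal levels. Cdh1, Krt8, Krt19, Spint2 and Cldn3 lay above the line, with Cdh1 at 44.3 CPM in D/KO and 0.168 CPM in WT, and Fut4 and Alpl lay near it.

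Over the 12 group means of the time course, the tested genes whose log2 CPM followed Cdh1 most closely were Gm11496 (Pearson r = 0.982) and Krt13, a keratin of stratified epithelia (0.977). Those nearest to Alpl were Npy2r (0.958) and Tex26 (0.950), and those nearest to Fut4 were Fzd5 (0.968) and Copb1 (0.963). These are descriptions across groups that share lines and treatments.

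In D/KO fibroblasts without reprogramming, Fut4 fell with 3 of the 4 inhibitors. Repsox, Vactosertib and A83-01 block the TGFb type I receptor ALK5, and DMH-1 blocks BMP type I receptors. The control libraries held 188, 163 and 135 Fut4 counts, the Repsox libraries 106, 110 and 113, the Vactosertib libraries 106, 99 and 97, the A83-01 libraries 70, 72 and 58, and the DMH-1 libraries 277, 240 and 140, from library totals that differ. On the CPM scale every library with Repsox, Vactosertib or A83-01 lay below every control library, and DMH-1 overlapped with the control.

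Fut4 went from 7.97 ± 0.028 CPM in the control to 4.10 ± 0.25 with Repsox (log2 fold change -0.96 ± 0.17, adjusted p = 3.02e-04, background 20.7%) and to 4.61 ± 0.75 with Vactosertib (-0.79 ± 0.17, adjusted p = 0.00225, background 18.1%). It was at 2.53 ± 0.33 CPM with A83-01 (-1.66 ± 0.18, adjusted p = 3.31e-07, background 27.5%). With DMH-1 it stood at 7.77 ± 0.86 CPM, a log2 difference of -0.03 with a 95% interval from -0.38 to 0.31 (adjusted p = 0.958, background 7.25%). These 4 comparisons share the control libraries. Marker lists moved with Fut4. Summed fibroblast markers ran from 79191 to 84455 CPM in the control, from 40685 to 48215 with Repsox, from 49105 to 52573 with Vactosertib, from 42436 to 45162 with A83-01 and from 68147 to 85755 with DMH-1. Summed immune markers were at 13.9 to 18.7 CPM in the control and at 18.9 to 35.7 CPM over these 3 ALK5 inhibitors, and osteoblast markers were at 31.5 to 37.2 CPM in the control and at 17.7 to 26.4 CPM over all 4 inhibitors. Endothelial markers were lower with A83-01 (142 to 181 against 291 to 332 CPM). Their part in the Fut4 result was not tested.

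Of 2 pairs of inhibitors given at equal doses, 1 differed in Fut4. A83-01 was lower than DMH-1 (log2 difference -1.62, 95% interval -1.99 to -1.25, adjusted p = 6.73e-07, background 20.5%), with no overlap of libraries. Repsox and Vactosertib did not differ detectably (-0.16, interval -0.53 to 0.20, adjusted p = 1), in a comparison in which edgeR called 0 genes (0.00%), DESeq2 called 6, and 347 genes had an unadjusted p under 0.05 in edgeR. Doses of the 2 pairs were not equal, so A83-01 is not set against Repsox or Vactosertib.

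Alpl did not pass with any inhibitor. The control held 31, 18 and 24 counts, and group means ran from 0.669 CPM with DMH-1 to 1.09 with Vactosertib against 1.20 in the control. The log2 differences were -0.39 with Repsox, -0.11 with Vactosertib, -0.82 with DMH-1 and -0.59 with A83-01 (adjusted p = 0.446, 0.891, 0.157 and 0.197), with 95% intervals that together ran from -1.50 to 0.55. The unadjusted interval of DMH-1 alone, -1.50 to -0.14, did not include 0.

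Nanog, at 4, 4 and 3 counts in the control, had 0 counts in all libraries with Repsox and with A83-01, 2, 2 and 0 with Vactosertib, and 0, 5 and 4 with DMH-1. Both all-zero groups passed the test (adjusted p = 0.0257 and 0.02002), at least 4.84-fold and 4.78-fold lower. Either call rests on 11 control counts of a gene with its highest group means in WT cells, and Nanog was not tested in a fit of only the libraries compared or in one without WT skin and WT 4F, while with no filter and by DESeq2 both calls held. The Repsox call was lost without the second control library or any Repsox library (adjusted p from 0.0565 to 0.0643), and the A83-01 call without the first or the third A83-01 library (0.0507 and 0.0519). Cdh1 had 0 counts in all 15 D/KO libraries of this table.

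The same lists were counted with the inhibitors, beside 20.7% of all tested genes called with Repsox, 18.1% with Vactosertib, 7.25% with DMH-1 and 27.5% with A83-01. Of 9 tested epithelial genes, 4 rose and 1 fell with Repsox, 3 rose and 2 fell with Vactosertib, 1 rose and 1 fell with DMH-1, and 5 rose and 1 fell with A83-01. Of 9 tested pluripotency genes, 2 rose and 1 fell with Repsox and with Vactosertib, 1 rose and 0 fell with DMH-1, and 3 rose and 1 fell with A83-01. Of the 15 mesenchymal genes, 4 rose and 3 fell with Repsox and with Vactosertib, 1 rose and 4 fell with DMH-1, and 6 rose and 7 fell with A83-01.

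**Figure D4:**
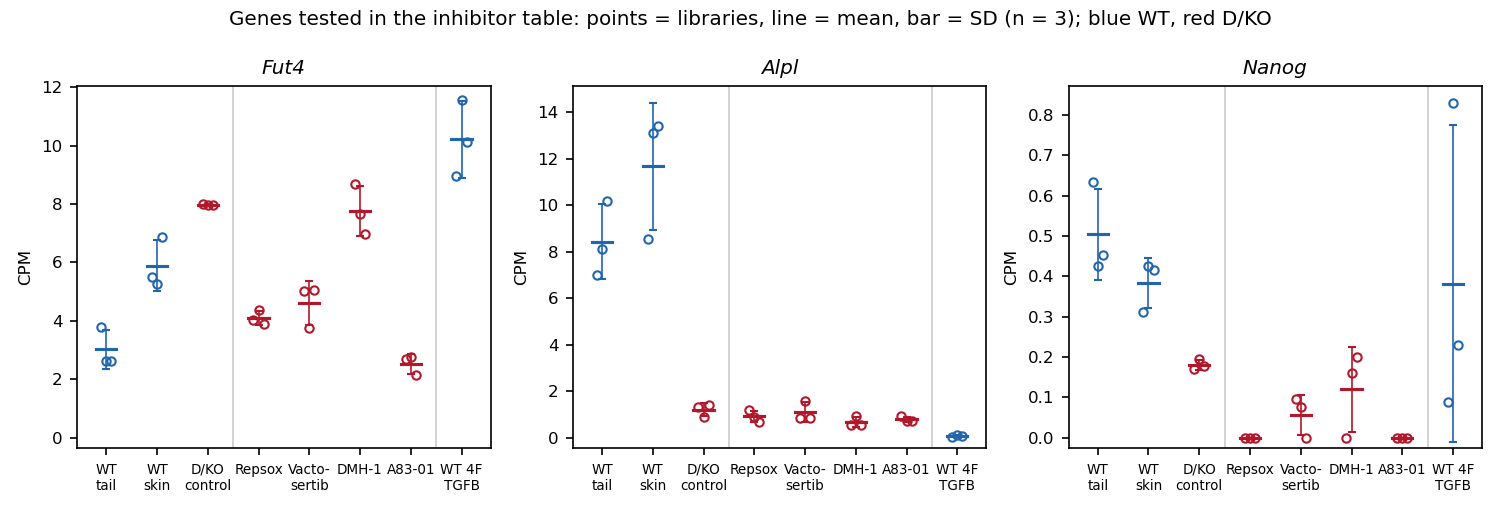
CPM (linear scale) of Fut4, Alpl and Nanog in the 8 groups of the inhibitor table, with points for libraries, a line at the mean and a bar for the SD (n = 3), WT in blue and D/KO in red. Fut4 lay at 2.53 to 4.61 CPM on average with Repsox, Vactosertib and A83-01 and at 7.77 with DMH-1, Alpl was low in all D/KO groups, and Nanog was at 0 with Repsox and A83-01.

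The control groups of this table differed among themselves. D/KO control cells had more Fut4 than WT tail tip cells (7.97 against 3.02 CPM, log2 difference 1.40 ± 0.17, adjusted p = 1.88e-06, background 34.6%) and less Alpl (1.20 against 8.42 CPM, -2.80 ± 0.29, adjusted p = 1.40e-07). WT skin fibroblasts had 1.95 times the Fut4 of WT tail tip fibroblasts (0.95 ± 0.18, adjusted p = 2.12e-04, background 34.2%), while Alpl and Nanog did not pass (adjusted p = 0.165 and 0.715). Alpl was called without the first skin library (0.65, edgeR adjusted p = 0.0465). The variance of that library against the other skin libraries was 397 and 301 times counting noise, against 6.27 between those. Summed endothelial markers ran from 291 to 332 CPM in D/KO control, from 168 to 241 CPM in WT skin and from 73.5 to 91.5 CPM in WT tail tip, and keratinocyte markers from 4.83 to 6.81, from 5.70 to 8.04 and from 17.5 to 19.6 CPM. Their part in these differences was not tested. The order of Alpl levels was WT skin (191, 308 and 226 counts) and WT tail tip (188, 209 and 247), which overlapped, then the D/KO groups, then WT 4F (1, 3 and 2). Nanog had 17, 11 and 11 counts in WT tail tip, 7, 10 and 7 in WT skin, and 2, 18 and 5 in WT 4F, whose libraries spread widely. The WT 4F cells had no control of their own line in this table, so their levels are given with no test. They stood apart in marker genes too, with summed keratinocyte markers at 224 to 253 CPM, of which Sfn held 229 CPM on average, against at most 19.6 CPM in the other groups, and endothelial markers at 1.47 to 1.97 CPM. Cdh1 had 4, 1 and 1 counts there.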

How the data were processed

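RNA was sequenced from mouse fibroblasts (paired-end reads of 150 bp) in 60 libraries. Per the labels and methods, the authors trimmed reads with Trim Galore, aligned them to GRCm39 with HISAT2 and counted genes with featureCounts of Subread, and the values they deposited are unnormalized read counts for each gene. Exon lengths in bases, deposited beside the counts, were used only for CPM per kilobase. Tool versions, annotation release, strand setting and handling of shared reads are not given in the sources used here. Symbols came from GENCODE M39, which held 56236 of 56980 identifiers (98.7%), with Tdgf1 under its name Cripto.

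In R 4.3.3, genes kept by filterByExpr (minimum count 10, minimum total 15) were scaled by TMM (factors 0.773 to 1.10 and 0.846 to 1.12) and tested with the two-sided quasi-likelihood F-test of edgeR 4.0.16, fitting all groups of a table together. P-values were adjusted by Benjamini-Hochberg over all genes tested in a comparison, and a gene was called at an adjusted p under 0.05. The background given beside results is the percentage of all tested genes called. Levels are CPM over TMM-scaled totals. A gene at 0 in a group was bounded with 3 counts over the group, and ratios on 1 to 3 counts carry an exact binomial interval (95%), both for counting error only. The tables were not tested against each other. Averaged over the better counted genes, the variance between replicates exceeded counting noise in every pair of libraries. Genes with few counts in a pair were left out of this average.

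The fit was tested on simulated data of only the 2 groups compared, with changes planted only in genes averaging at least 10 counts per library. For day 4 against day 0 with VC in D/KO (15832 genes), 78% of genes changed by 1 and 95% of those changed by 2 on the log2 scale were called. For Repsox against control (15652 genes) the shares were 59% and 89%. Among unchanged genes 6 and 7 were called. These rates cover neither genes with fewer counts nor the fit of all groups together. DESeq2 1.42.0, other filters and scaling, subsets of libraries and single libraries left out were tried as alternatives.

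The genes and lists were chosen with earlier results of these data known. Named were all 10 genes and, from each list, up to 3 genes per direction with the largest called change at day 4 with VC in each line, plus the 2 genes most alike over 12 groups. One gene under this rule is not reported here. Zeb1, Zeb2, single marker genes and genes with 0 counts were named after their values were seen. Fut10, Fut11 and Lor were not matched.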

Additional observations from a re-analysis of the deposited data

Results flagged for a closer look

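The change of Alpl from day 0 to day 4 without VC differed between the lines by 4.81 on the log2 scale (D/KO minus WT, edgeR adjusted p = 5.59e-04): Alpl was at 0.819 and 0.536 CPM in D/KO and at 1.82 and 0.0354 CPM in WT. Fut4 in the WT 4F libraries labelled TGFB, which entered no comparison, was at 8.95 CPM in the lowest library, above all control libraries of that table. These libraries also stood apart in summed keratinocyte markers (224 to 253 CPM) and endothelial markers (1.47 to 1.97 CPM), whose part in the Fut4 level was not tested.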

How the results depend on the processing

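No paired analysis was possible because the labels number libraries consecutively over groups and give no shared replicate numbers. Requiring at least 10 counts in every library leaves out Cdh1 and Alpl in the time course, so that calls fell from 19 to 7 of 24 against day 0, from 4 to 0 for day 4 against day 2 and from 4 to 0 for VC against no VC. The difference of change between lines had 1 call by edgeR, 2 with no filter, 6 by DESeq2 (3 of them Cdh1, whose day 0 groups were at or near 0, so that these 3 are not read) and 6 where lines were compared at the same day, an alternative chosen after seeing the data. Fitting only the libraries compared left 1 of 3 calls between lines at day 0, 16 of 19 against day 0 and 4 of 6 for inhibitors, and fitting the 18 inhibitor libraries without WT skin and WT 4F also left 4 of 6. Cdh1 in WT and Nanog in D/KO were not tested there. Leaving out single libraries gave 18 to 19 calls against day 0, 3 to 5 for day 4 against day 2, 4 to 5 for VC, 1 to 2 for the difference of change, 2 to 4 for lines at day 0, 5 to 7 for inhibitors and 3 to 4 for controls. With day 0 without VC as the baseline, Alpl at day 2 with VC in D/KO turned from -3.30 to 0.41. Without D/KO day 0 with VC library 1, which held both counts, Cdh1 in that group went from a log2 difference of 2.91 to 0 against day 0 without VC and against WT (up to 3.43 without other single libraries). Plain library totals moved Alpl in WT at day 0 with VC from 12.56 to 11.02 CPM. Of the other single-gene values under alternatives, 41 lost a call, 19 gained one and 1033 kept the side of the threshold. The last kept their direction as well or, where uncalled, had both log2 values under 1 in size. The cause was not tested. At this depth 7 of the 10 genes failed the filter in the time course and are given as counts only.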
